A study of Mus musculus with 12 samples.

Results

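The 9 genes described here encode the control points of glucose output, glycogen storage and glucose exchange in mouse liver: Pcx, Pck1, Fbp1, G6pc, Slc2a2, Pklr, Gys2, Pygl and Ppargc1a. They were chosen by symbol and all 9 were present among the 53796 genes of the deposited table. Total liver RNA was sequenced from 12 libraries, 3 in each of 4 groups. The Sham group was wild type with a sham label. The WT group was wild type, RIPK1 D138N carried a mutation known to remove the kinase activity of RIPK1 (a kinase acting below TNF receptors), and TNFR1/2 KO was labelled a knockout of both TNF receptors. The last 3 groups were taken as the ischemia arm, meaning an interruption of blood supply, from the title of the series. Sham libraries of the mutant lines were not analysed here, so for either mutant a difference present before ischemia and one that arose with it cannot be told apart. The age, sex, operation, time of collection and line background were not given in the sources used here, and neither was whether the repeats were separate animals. Each p-value hence reflects the variation among these libraries alone, which may be technical.

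Liver makes glucose from lactate, amino acids and glycerol by gluconeogenesis. Pcx and Pck1 carry pyruvate carbon to phosphoenolpyruvate, Fbp1 and G6pc remove phosphate groups further up the pathway, and Slc2a2 carries glucose across the hepatocyte membrane. Pklr, the liver pyruvate kinase, runs in the glycolytic direction. Gys2 is the liver glycogen synthase, Pygl is the liver glycogen phosphorylase, and Ppargc1a is a coactivator known for raising gluconeogenic transcription in fasting. Glucagon raises and insulin lowers Pck1 and G6pc transcription.

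Levels are FPKM, fragment abundance scaled by transcript length and sequencing depth, so they can be compared between genes. The FPKM of all genes summed to 649400 to 750500 in Sham, 288900 to 303500 in WT, 489300 to 518600 in RIPK1 D138N and 441300 to 512900 in TNFR1/2 KO, and 10135 to 10653 genes reached 1 FPKM in a library. The depth in fragments is unknown. RIPK1 D138N replicates 2 and 3 carried Xist (20.1 and 23.4 FPKM) and almost no Ddx3y (0.0176 and 0 FPKM), whereas no other library exceeded 0.0824 FPKM of Xist or lay below 11.97 FPKM of Ddx3y. In TNFR1/2 KO, Tnfrsf1a stood at 18.5 ± 3.28 FPKM (SD, n = 3) and Tnfrsf1b at 6.83 ± 2.70, against 35.1 ± 2.90 and 9.51 ± 1.20 in WT. RIPK1 D138N, which is not labelled a receptor knockout, held similar or lower levels (19.8 ± 1.10 and 5.52 ± 0.499). The deleted parts of these genes were not given in the sources used here, so these gene-level values do not check that label, and the group names below are those of the labels. A level of Ripk1 does not check a point mutation; it was 3.48 ± 0.434 FPKM in RIPK1 D138N and 3.88 ± 0.859 in WT.

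In wild-type liver most of the 9 genes had a far lower level in the ischemia arm than in Sham. Of the 8 that passed the filter on low values (1 FPKM or more in 3 or more libraries), 7 were lower in WT than in Sham (limma on log2(FPKM + 1), adjusted p under 0.05). By the same test 0 were higher, also at an unadjusted p under 0.05. Over all 11728 genes tested, 41.9% were called lower and 16.4% higher. The median log2 fold change of the 8 was -1.53, beside -0.36 over all genes tested. The members lower by the widest margin were Gys2, Pck1 and Fbp1, and Pklr was the 1 member not called. In both mutant lines of the ischemia arm most of these genes stood above WT. The split of all called genes depended on scaling: WT vs Sham had 1918 higher and 4913 lower, but 3169 and 3185 after median-of-ratios scaling, where 5 of the 8 were still lower and G6pc and Pcx were not called.

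**Figure D1:**
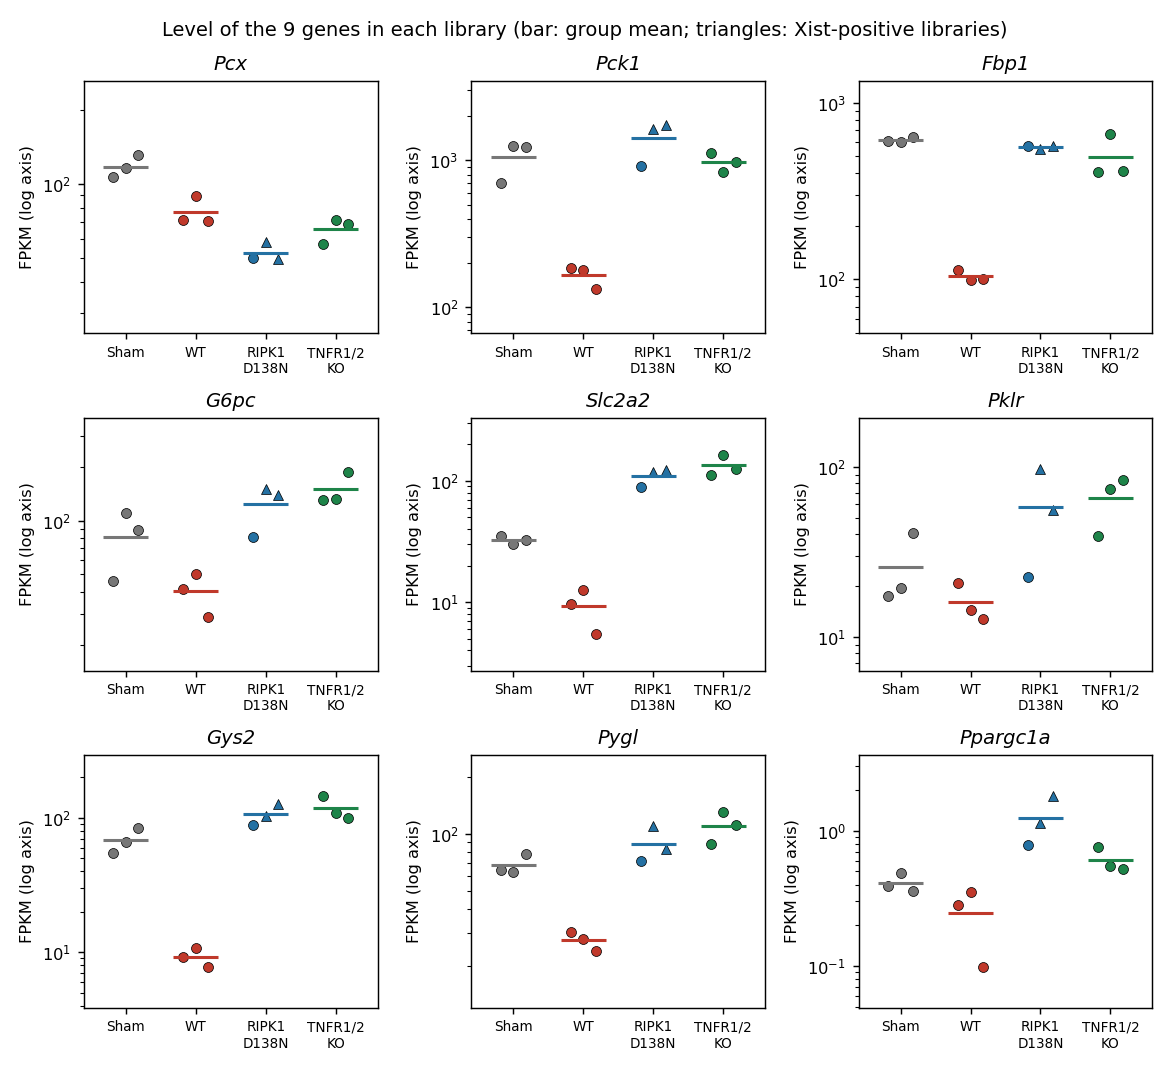
Level in FPKM (log axis) of the 9 genes in each of the 12 libraries; each point is 1 library, the bar is the mean of the 3 libraries of a group, and triangles are RIPK1 D138N replicates 2 and 3, which carry Xist. The 3 WT points lie below all other points for Pck1, Fbp1, Slc2a2, Gys2, Pygl and Ppargc1a, and for Pcx the RIPK1 D138N group has the lowest mean.

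Among the gluconeogenic enzymes, Pck1 (phosphoenolpyruvate carboxykinase; chromosome 2, 173153048 to 173159273, plus strand, GENCODE M21 on GRCm38) is the classical hormone-controlled step. Its 3 Sham libraries held 697, 1250 and 1241 FPKM and the WT libraries 185, 180 and 133 FPKM. RIPK1 D138N replicates 1 to 3 held 920, 1636 and 1735 FPKM, and TNFR1/2 KO replicates 1 to 3 held 1132, 836 and 974 FPKM. Every WT library lay below every library of the other 3 groups, which overlapped one another. The log2 fold change was -2.64 (SE 0.290, adjusted p = 8.4e-06) in WT vs Sham, 3.06 (SE 0.290, adjusted p = 3.9e-06) in RIPK1 D138N vs WT and 2.56 (SE 0.290, adjusted p = 1.7e-05) in TNFR1/2 KO vs WT. The Xist-positive RIPK1 D138N libraries held the highest values. With both left out, which leaves replicate 1 alone in that group, the RIPK1 D138N vs WT value was 2.48.

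Fbp1 (fructose bisphosphatase; chromosome 13, 62864753 to 62888282, minus strand) varied least within Sham among the 9. It was measured at 611, 604 and 643 FPKM in Sham, 112, 98.8 and 101 FPKM in WT, 571, 544 and 570 FPKM in RIPK1 D138N, and 408, 664 and 411 FPKM in TNFR1/2 KO. WT lay apart from every other group, and 1 TNFR1/2 KO library, replicate 2, stood above all Sham libraries while the other 2 stood below them. The WT mean was 16.8% of the Sham mean, with a log2 fold change of -2.56 (SE 0.193, adjusted p = 4.7e-07). The mean was 5.40 times that of WT in RIPK1 D138N (adjusted p = 1.5e-06) and 4.75 times in TNFR1/2 KO (adjusted p = 2.8e-06).

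G6pc (catalytic subunit of glucose-6-phosphatase, the last step before glucose leaves the cell; chromosome 11, 101367561 to 101377903, plus strand) changed less. The Sham libraries held 46.0, 110 and 88.5 FPKM and the WT libraries 41.6, 50.1 and 28.9 FPKM, so these groups overlapped. RIPK1 D138N held 81.5, 150 and 140 FPKM and TNFR1/2 KO 130, 132 and 188 FPKM, all above WT. The log2 fold change of -0.95 in WT vs Sham (SE 0.330, adjusted p = 0.025) was not called under median-of-ratios scaling (-0.51, adjusted p = 0.23), without the filter (adjusted p = 0.076) or with either of 2 Sham libraries or 1 WT library left out, and it was 0.074 (adjusted p = 0.88) after quantile normalization. RIPK1 D138N vs WT gave 1.58 (SE 0.330, adjusted p = 0.0015), but 0.78 (adjusted p = 0.085) after quantile normalization. It was 1.04 without the Xist-positive libraries, which leaves replicate 1 alone. TNFR1/2 KO vs WT gave 1.89 (SE 0.330, adjusted p = 0.00047).

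Pcx (pyruvate carboxylase, the mitochondrial entry step; chromosome 19, 4510472 to 4621752, plus strand) had an order of its own. Sham held 106, 116 and 131 FPKM, WT 71.2, 89.2 and 70.5, RIPK1 D138N 50.02, 58.5 and 49.6, and TNFR1/2 KO 57.3, 71.6 and 69.1 FPKM. Here the mutant means were below the WT mean, and neither mutant reached the Sham range. WT vs Sham was -0.61 (SE 0.164, adjusted p = 0.0063), RIPK1 D138N vs WT -0.53 (SE 0.164, adjusted p = 0.016) and TNFR1/2 KO vs WT -0.22 (SE 0.164, adjusted p = 0.30). The direction in WT vs Sham turned with scaling: it was -0.16 (adjusted p = 0.43) by median-of-ratios and 0.58 (adjusted p = 0.0049) by quantile normalization. The RIPK1 D138N vs WT call was lost without 1 WT library (adjusted p = 0.050) or without RIPK1 D138N replicate 3 (adjusted p = 0.060). With both Xist-positive libraries left out, which leaves replicate 1 alone, the value was -0.60. After quantile normalization TNFR1/2 KO was called below WT as well (-1.11, adjusted p = 6.6e-05). Against Sham both mutants were called lower, at -1.14 in RIPK1 D138N (adjusted p = 0.00040) and -0.83 in TNFR1/2 KO (adjusted p = 0.0034). These 2 calls held in every alternative run that kept more than 1 library per group.

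Slc2a2 (the hepatocyte glucose transporter; chromosome 3, 28697903 to 28731359, plus strand) had the largest ratio of highest to lowest group mean among the 8 tested genes. Sham held 34.9, 30.2 and 32.8 FPKM and WT 9.62, 12.7 and 5.46 FPKM. RIPK1 D138N held 88.5, 119 and 123 FPKM and TNFR1/2 KO 112, 164 and 125 FPKM. The 2 mutants overlapped each other and lay wholly above Sham, which lay wholly above WT. The log2 fold change was -1.78 (SE 0.252, adjusted p = 6.3e-05) in WT vs Sham, 3.49 (adjusted p = 7.9e-07) in RIPK1 D138N vs WT and 3.77 (adjusted p = 4.7e-07) in TNFR1/2 KO vs WT. Both mutants exceeded Sham as well, by 1.71 (adjusted p = 0.00049) and 1.99 (adjusted p = 0.00018), which is a ratio of mean FPKM of 3.37 and 4.10. Slc2a2 lies in a locus that the authors' table merged with 2 other genes, and Pcx, Pklr and Pygl each share such a locus with 1 other gene. Fragments could have been assigned across those genes, because the strand setting was not given in the sources used here.

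Pklr (chromosome 3, 89136142 to 89146784, plus strand) opposes gluconeogenesis at the pyruvate step, yet stood higher in the mutants along with Pck1 and G6pc. Sham held 17.3, 19.4 and 40.6 FPKM, WT 20.8, 14.5 and 12.7, RIPK1 D138N 22.4, 96.5 and 55.9, and TNFR1/2 KO 38.9, 74.3 and 83.7 FPKM. Sham and WT overlapped, and the low RIPK1 D138N library was replicate 1, the 1 without Xist. WT vs Sham was -0.58 (SE 0.469, adjusted p = 0.30). RIPK1 D138N vs WT was 1.60 (SE 0.469, adjusted p = 0.012), but 1.13 (adjusted p = 0.054) without replicate 2 alone and 1.12 (adjusted p = 0.054) after quantile normalization. It was 0.49 without the Xist-positive libraries, which leaves replicate 1 alone. TNFR1/2 KO vs WT was 1.93 (SE 0.469, adjusted p = 0.0045).

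Gys2 (chromosome 6, 142422613 to 142473109, minus strand) builds glycogen. Its levels were 54.4, 65.5 and 84.4 FPKM in Sham, 9.24, 10.7 and 7.74 FPKM in WT, 88.5, 104 and 127 FPKM in RIPK1 D138N, and 146, 108 and 99.1 FPKM in TNFR1/2 KO. The 3 WT libraries were far below the rest, and all 6 mutant libraries were above all 3 Sham libraries. WT vs Sham was -2.74 (SE 0.215, adjusted p = 6.4e-07), RIPK1 D138N vs WT 3.38 (adjusted p = 3.8e-07) and TNFR1/2 KO vs WT 3.53 (adjusted p = 2.7e-07). Against Sham, RIPK1 D138N was 0.64 (adjusted p = 0.040) and TNFR1/2 KO 0.78 (adjusted p = 0.019) higher. Leaving out 1 Sham library ended both calls (adjusted p = 0.12 and 0.066). The RIPK1 D138N call was also lost without another Sham library (adjusted p = 0.088), without replicate 2 (adjusted p = 0.082), without replicate 3 (adjusted p = 0.15) or without the filter (adjusted p = 0.081). Without both of these replicates, which leaves replicate 1 alone, the value was 0.40. The TNFR1/2 KO call was lost without its replicate 1 (adjusted p = 0.082).

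Pygl (chromosome 12, 70190811 to 70231488, minus strand) breaks glycogen down. It stood at 64.7, 62.7 and 78.0 FPKM in Sham, 30.2, 28.0 and 24.1 in WT, 71.8, 111 and 83.5 in RIPK1 D138N, and 88.8, 130 and 111 FPKM in TNFR1/2 KO. WT was below every other library. WT vs Sham was -1.29 (SE 0.199, adjusted p = 0.00012), but -0.37 (adjusted p = 0.11) after quantile normalization. RIPK1 D138N vs WT was 1.64 (adjusted p = 2.4e-05) and TNFR1/2 KO vs WT 1.96 (adjusted p = 7.5e-06).

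Ppargc1a (chromosome 5, 51454250 to 51567726, minus strand, in a locus merged with 4 other genes) was scarce, and reached 1 FPKM in only 2 libraries. It was therefore not among the tested genes. The values were 0.392, 0.490 and 0.358 FPKM in Sham, 0.282, 0.355 and 0.0989 in WT, 0.784, 1.13 and 1.79 in RIPK1 D138N, and 0.750, 0.545 and 0.521 in TNFR1/2 KO. No 2 groups overlapped, in the order WT, Sham, TNFR1/2 KO, RIPK1 D138N. Each of the 6 exact two-sided permutation tests gave p = 0.1, the smallest that 3 against 3 libraries allow. In a fit without the filter over 27155 genes, RIPK1 D138N vs WT was 0.83 on the log2(FPKM + 1) scale (SE 0.160, adjusted p = 0.0039), where 13.1% of genes were called higher. RIPK1 D138N vs Sham was 0.64 (SE 0.160, adjusted p = 0.030), where 3.39% were called higher, and TNFR1/2 KO vs WT was 0.37 (SE 0.160, adjusted p = 0.14).

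**Figure D2:**
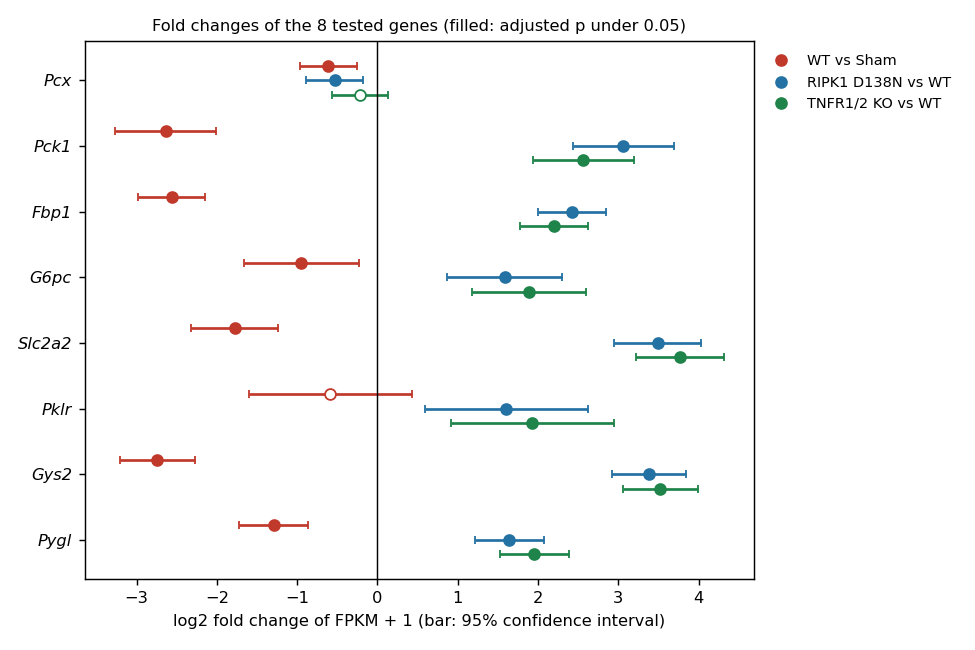
Log2 fold changes of FPKM + 1 (horizontal axis) for the 8 tested genes in 3 comparisons; bars are 95% confidence intervals and filled points have an adjusted p under 0.05. All 8 points of WT vs Sham lie left of 0, and those of both mutants against WT lie right of 0 except for Pcx.

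The 250 bases before the start of 3 hormone-controlled members are shown because these genes stood higher in both mutants than in WT by mean level and their upstream regions are known to bind CREB or FOXO factors. Sequences and starts are those of RefSeq (GRCm38.p6), which held promoters of 8 of the 9 members. They are written 5′ to 3′ on the strand of the gene, at chr2:173152823-173153072 (plus), chr11:101367466-101367715 (plus) and chr5:51567726-51567975 (minus). Capitals mark matches to the searched motifs, on either strand.
Pck1: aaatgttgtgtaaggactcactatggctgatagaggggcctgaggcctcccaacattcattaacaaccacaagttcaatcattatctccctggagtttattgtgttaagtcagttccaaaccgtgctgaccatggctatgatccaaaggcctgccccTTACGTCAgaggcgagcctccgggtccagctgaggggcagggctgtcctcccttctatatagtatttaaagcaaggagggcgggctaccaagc
G6pc: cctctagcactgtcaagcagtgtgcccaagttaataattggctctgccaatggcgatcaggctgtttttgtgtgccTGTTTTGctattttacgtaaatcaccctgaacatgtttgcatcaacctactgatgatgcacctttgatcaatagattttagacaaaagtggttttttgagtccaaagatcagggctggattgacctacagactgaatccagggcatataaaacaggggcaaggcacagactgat
Ppargc1a: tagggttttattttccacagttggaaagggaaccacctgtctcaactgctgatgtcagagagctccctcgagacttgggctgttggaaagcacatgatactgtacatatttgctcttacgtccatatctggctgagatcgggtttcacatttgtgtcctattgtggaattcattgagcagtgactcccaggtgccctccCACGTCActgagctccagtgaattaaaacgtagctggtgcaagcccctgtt

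The capitals in Pck1 are a match to TNACGTCA, a cyclic AMP response element, at 93 to 86 bases before the start. This motif was present in 2.52% of 32851 promoters of the same length. Its shorter core ACGTCA, which lies within it, was present in 6.47%. Ppargc1a held ACGTCA at 50 to 45 bases before the start, overlapping the reverse of ACGTG (16.6% of promoters), which is why 7 letters are in capitals there. G6pc held TGTTTTG, the reverse complement of the FOXO-type motif CAAAACA (5.56% of promoters), at 174 to 168 bases. ACGTG, an E-box and hypoxia-element core, also occurred 3 times in 1 of the 2 Pcx promoters, including 2 overlapping matches on opposite strands, and once upstream of Pygl. The other Pcx promoter held none of the searched motifs. GTAAACA (3.17%) and CAAAGTCCA (0.384%) were found in none of the windows searched. A match describes letters only; binding was not measured.

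The comparison of RIPK1 D138N with WT was made within the ischemia arm. RIPK1 D138N replicates 2 and 3 carried Xist and the line background was not given, so this comparison does not isolate the loss of RIPK1 kinase activity. Of the 8 tested members, 7 were higher (29.8% of all genes were called higher) and 1, Pcx, was lower (21.9% of all genes). The median log2 fold change was 2.03, beside 0.11 over all genes tested. Leaving out the Xist-positive libraries leaves replicate 1 alone in RIPK1 D138N. That fit holds no variation within RIPK1 D138N, so only its log2 fold changes are read. They are given above for Pck1, G6pc, Pcx and Pklr. In TNFR1/2 KO vs WT, 7 of the 8 tested members were higher (29.6% of all genes) and 0 lower (17.5%), with a median of 2.08 beside 0.14. Median-of-ratios scaling moved the split of all called genes in TNFR1/2 KO vs WT from 3466 higher and 2054 lower to 2903 and 2970. These comparisons share the WT libraries with each other and with WT vs Sham, so the values are given side by side and nothing is read from their likeness.

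Between the 2 mutant lines 0 of the 8 members were called by limma, at adjusted p of 0.48 (Pcx) to 0.87 (Gys2), and 0 had an unadjusted p under 0.05. Over all genes, 0.929% were called, 0.35% higher in RIPK1 D138N and 0.58% lower (41 and 68 genes, or 44 and 40 after median-of-ratios scaling). The 95% confidence interval of RIPK1 D138N minus TNFR1/2 KO was -0.13 to 1.13 for Pck1, -1.02 to 0.41 for G6pc, -1.34 to 0.69 for Pklr, and -0.61 to 0.32 for Gys2. Those intervals do not show that the lines were alike: for Pck1 they include an excess of more than 1 log2 unit, and for G6pc and Pklr a deficit of more than 1.

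Against Sham, 2 of the 8 members were higher in RIPK1 D138N (Slc2a2 and Gys2; 7.51% of all genes) and 1 was lower (Pcx; 22.7%). In TNFR1/2 KO, 3 were higher (Slc2a2, Gys2 and Pygl; 7.46%) and 1 was lower (Pcx; 18.1%). After median-of-ratios scaling the genes called higher and lower against Sham went from 881 and 2658 to 1404 and 1235 in RIPK1 D138N, and from 875 and 2127 to 1271 and 1095 in TNFR1/2 KO. Pygl exceeded Sham by 0.67 in TNFR1/2 KO (SE 0.199, adjusted p = 0.028), and this call was lost without either of 2 Sham libraries or without TNFR1/2 KO replicate 2 or 3 (adjusted p up to 0.092), and without the filter (adjusted p = 0.055). Pygl in RIPK1 D138N vs Sham was 0.35 (adjusted p = 0.20), but was called higher under median-of-ratios scaling (0.66, adjusted p = 0.023), quantile normalization (0.58, adjusted p = 0.044) and the length correction (0.57, adjusted p = 0.039). G6pc and Pklr missed the threshold in TNFR1/2 KO vs Sham at 0.94 (adjusted p = 0.053) and 1.34 (adjusted p = 0.052).

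Ratios of 2 genes within a library were taken as log2((FPKM + 1)/(FPKM + 1)). Apart from the added 1, a factor applied to the whole library cancels in them. A trend with exonic length, described further below, does not cancel. That length is 2657 bases for Gys2 and 6895 for Pygl. This log2 ratio of Gys2 to Pygl, synthesis against breakdown of glycogen, was -0.024 ± 0.195 in Sham (SD, n = 3), -1.48 ± 0.157 in WT, 0.27 ± 0.346 in RIPK1 D138N and 0.094 ± 0.534 in TNFR1/2 KO. WT did not overlap any other group (exact two-sided permutation p = 0.1, the smallest possible, adjusted p = 0.25 over 30 tests). In each WT library Gys2 lay further below Pygl than in any other library. The log2 ratio of Pck1 to Pklr was 5.36 ± 0.526 in Sham, 3.31 ± 0.229 in WT, 4.77 ± 0.631 in RIPK1 D138N and 3.94 ± 0.766 in TNFR1/2 KO. It was lower in every WT library than in every Sham library (difference -2.05, exact permutation p = 0.1, adjusted p = 0.25), and TNFR1/2 KO overlapped WT (exact permutation p = 0.3). The log2 ratio of G6pc to Pklr was 1.64 ± 0.710, 1.27 ± 0.399, 1.25 ± 0.595 and 1.23 ± 0.453 in the same order, and all groups overlapped. Pck1 to Slc2a2 was the 1 ratio in which the mutants did not overlap (3.65 ± 0.247 in RIPK1 D138N, 2.87 ± 0.497 in TNFR1/2 KO, exact permutation p = 0.1, adjusted p = 0.25).

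**Figure D3:**
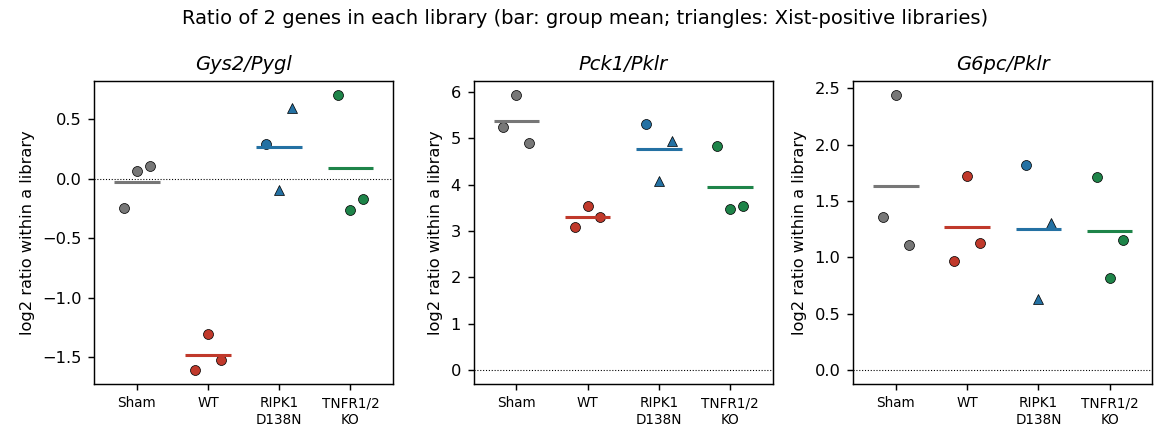
Log2 ratio of 2 genes within each library (vertical axis; points are libraries, bars are group means, triangles are the Xist-positive libraries). For Gys2/Pygl the 3 WT libraries lie below all 9 others, whereas for G6pc/Pklr the 4 groups overlap.

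The other genes of these pathways were read from a list of 88 genes in 4 sets, of which 81 were tested. The gluconeogenesis set (20 genes, 19 tested) covers carbon supply and shuttles. In WT vs Sham, 16 were lower and 1 higher (41.9% and 16.4% of all genes tested), with a median of -1.63. Sds, which turns serine into pyruvate, went from 394 ± 33.3 FPKM in Sham to 15.0 ± 2.39 in WT (SD, n = 3; log2 fold change -4.64, SE 0.273). Aqp9, the glycerol channel, went from 149 ± 2.78 to 26.1 ± 1.37 FPKM (-2.47, SE 0.139). Slc37a4, the transporter that feeds G6pc in the endoplasmic reticulum, went from 117 ± 4.19 to 21.3 ± 4.14 FPKM (-2.42, SE 0.183). Tat, Gpt2 and Mdh1 were lower by -2.68, -2.44 and -2.37. The 1 higher gene was Pck2, the mitochondrial counterpart of Pck1, at 1.20 ± 0.700 and 2.72 ± 0.561 FPKM (0.80, SE 0.253, adjusted p = 0.016); it was named after its value was seen. In RIPK1 D138N vs WT, 14 were higher and 1 lower (29.8% and 21.9% of all genes), led by Sds (3.58), Slc16a7 (3.36), Tat (2.93) and Mdh1 (2.44). In TNFR1/2 KO vs WT, 15 were higher and 2 lower (29.6% and 17.5%), led by Sds (2.98), Slc16a7 (2.45), Mdh1 (2.44) and Tat (2.34). Sds was still lower than in Sham in both, at 202 ± 81.9 FPKM in RIPK1 D138N (-1.05, adjusted p = 0.012) and 124 ± 10.3 FPKM in TNFR1/2 KO (-1.65, adjusted p = 0.0011).

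The glycogen set (24 genes, 19 tested) did not move in 1 direction. In WT vs Sham, 5 were higher, 4 lower and 10 not called, with a median of -0.058 (all genes: 16.4% higher, 41.9% lower). Among genes that target protein phosphatase to glycogen, Ppp1r3c (-1.48) and Ppp1r3b (-1.29) were lower and Ppp1r3g was higher (2.29). Ppp1r3g stood at 0.119, 0.233 and 0.194 FPKM in Sham and 4.49, 7.75 and 3.03 FPKM in WT. It was higher again in RIPK1 D138N, at 9.50, 29.2 and 34.5 FPKM (1.95 against WT, SE 0.384, adjusted p = 0.00098), and held 9.54, 8.74 and 11.02 FPKM in TNFR1/2 KO. Both Xist-positive libraries gave the 2 highest of these values. Phkb, a phosphorylase kinase subunit, was lower in WT than in Sham (-1.05), and Ppp1r3b stood above WT in RIPK1 D138N (1.52) and TNFR1/2 KO (1.26). The set counted 5 higher and 3 lower in RIPK1 D138N vs WT and 4 higher and 2 lower in TNFR1/2 KO vs WT, shares of its 19 tested genes that lay below those of all genes in both directions (29.8% and 21.9%, then 29.6% and 17.5%).

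The set for glucose entry and the glycolytic gate (13 genes, all tested) split evenly in WT vs Sham, with 6 higher and 6 lower (16.4% and 41.9% of all genes). Forms of other tissues could be set beside the hepatocyte form for 3 proteins, a grouping made after the values were seen. Slc2a1, the widely expressed glucose transporter, held 2.33, 6.16 and 3.08 FPKM in Sham and 54.9, 68.2 and 50.5 in WT (3.67, SE 0.340), the reverse of Slc2a2. Pkm, the pyruvate kinase gene of most other tissues, held 2.79, 3.93 and 2.76 FPKM in Sham and 118, 126 and 121 in WT (4.89, SE 0.248). Gys1, the muscle glycogen synthase, held 0.169, 0.311 and 0.311 FPKM in Sham and 6.22, 6.57 and 4.29 in WT (2.39, SE 0.163), while Gys2 fell. Hk2, the muscle-type hexokinase, held 0.119, 0.110 and 0.0782 FPKM in Sham and 3.80, 8.17 and 3.69 in WT (2.42, SE 0.258). In WT the mean of Pkm was 122 FPKM beside 16.0 FPKM for Pklr, and in Sham it was 3.16 beside 25.8 FPKM.

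**Figure D4:**
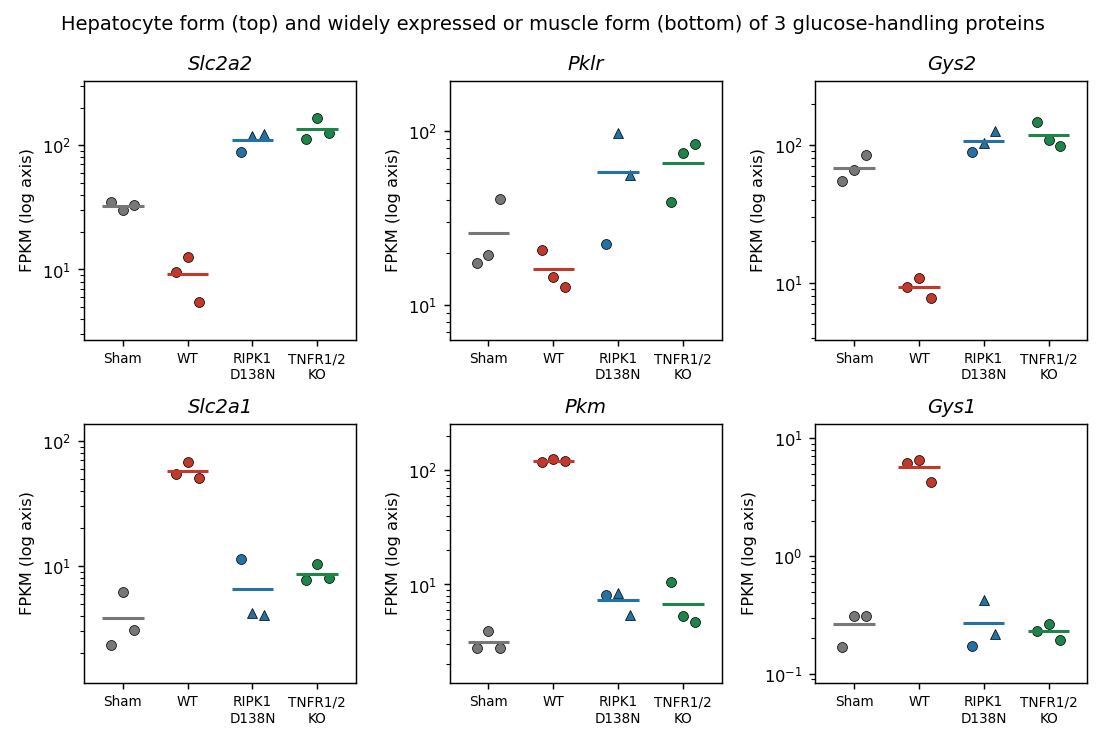
Level in FPKM (log axis) in each library of the hepatocyte form (top row) and the widely expressed or muscle form (bottom row) of glucose transporter, pyruvate kinase and glycogen synthase; points are libraries, bars group means and triangles the Xist-positive libraries. The bottom-row genes are highest in the 3 WT libraries, and no top-row gene has its highest library in WT.

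In the mutants Slc2a1, Pkm, Gys1 and Hk2 were all below WT. Pkm was at 7.33 ± 1.63 FPKM in RIPK1 D138N and 6.79 ± 3.17 in TNFR1/2 KO (log2 fold changes of -3.90 and -4.05 against WT). Slc2a1 was at 6.55 ± 4.20 and 8.70 ± 1.42 FPKM, Hk2 at 0.501 ± 0.289 and 0.833 ± 0.401, and Gys1 at 0.272 ± 0.134 and 0.229 ± 0.0346 FPKM. Pfkl, the liver phosphofructokinase, went from 3.21 ± 1.04 FPKM in Sham to 33.0 ± 2.37 in WT (3.04). The bifunctional enzymes that set fructose bisphosphate signalling parted: Pfkfb3 was higher in WT (1.68) and Pfkfb1, the liver form, was lower (-3.49).

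Hormone and transcriptional control genes (31 genes, 30 tested) counted 10 higher and 10 lower in WT vs Sham (16.4% and 41.9% of all genes). Gcgr, the glucagon receptor, held 75.8, 68.0 and 73.0 FPKM in Sham and 21.5, 37.2 and 21.0 in WT (-1.46, SE 0.209, adjusted p = 6.9e-05). Klf15, a fasting and glucocorticoid-responsive factor of amino acid catabolism, held 44.7, 65.6 and 49.6 FPKM in Sham and 3.45, 5.55 and 2.79 in WT (-3.48, SE 0.244). Hnf4a (-1.45), Foxa2 (-1.63), Ppara (-1.26) and Adra1b, an adrenergic receptor (-1.50), were lower too. Higher in WT were Pdk4, which restrains pyruvate oxidation (4.50), Srebf1, a lipogenic factor (2.77), Nr4a1 (2.51), Igfbp1 (2.02), Sik1 (1.65) and Trib3 (1.64). Against Sham, Srebf1 was also called higher in RIPK1 D138N (2.81) and TNFR1/2 KO (3.50). So were Nr4a1 (2.70 and 3.42), Sik1 (1.07 and 1.63) and Pdk4 (1.76 and 1.88), but not Igfbp1 or Trib3. Hnf4a (-1.32 and -0.97) and Foxa2 (-1.12 and -1.29) were called lower than Sham in both mutants. Ppara was called lower in RIPK1 D138N alone (-0.72), and Klf15, Gcgr and Adra1b in neither. In RIPK1 D138N vs WT, 5 were higher and 5 lower (29.8% and 21.9% of all genes), with Klf15 at 3.88, Adra1b at 2.12 and Gcgr at 1.30, and Pdk4 at -2.74, Trib3 at -2.11 and Igfbp1 at -1.44. In TNFR1/2 KO vs WT, 9 were higher and 6 lower, near the shares of all genes (29.6% and 17.5%), with Klf15 at 3.46, Adra1b at 2.32, Nr0b2 at 1.93, Gcgr at 1.60, Cebpa at 1.37 and Esrra at 1.19, and Pdk4 at -2.62, Trib3 at -1.54 and Igfbp1 at -1.36.

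**Figure D5:**
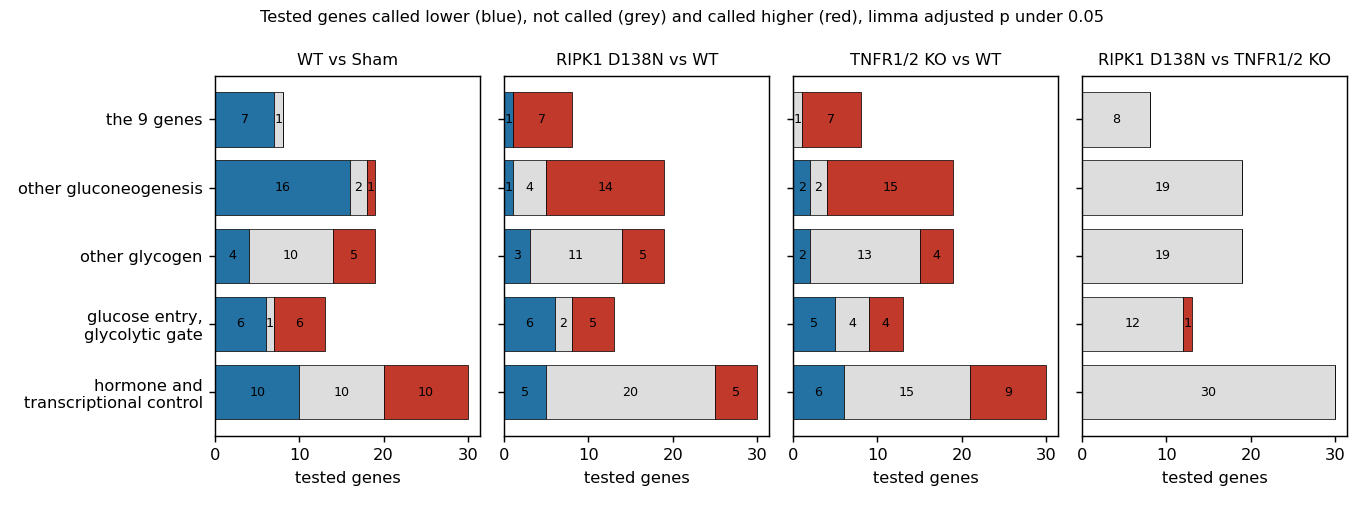
Number of tested genes (horizontal axis) called lower (blue), not called (grey) and called higher (red) in the 9 genes and the 4 other sets, for 4 comparisons. The gluconeogenesis set is mostly lower in WT vs Sham (16 of 19) and mostly higher in the mutants against WT (14 and 15 of 19), and between the mutants 1 gene is called.

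Between the mutants 1 of the 81 genes was called, Pfkfb1, which held 8.43, 10.9 and 8.61 FPKM in RIPK1 D138N and 5.60, 4.82 and 3.38 FPKM in TNFR1/2 KO (0.89, SE 0.186, adjusted p = 0.046). The call was lost under most alternatives, among them leaving out RIPK1 D138N replicate 2 or 3 or TNFR1/2 KO replicate 2 or 3 alone.

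Some genes followed a member closely across the 12 libraries. By Pearson correlation of log2(FPKM + 1) among 5525 candidates, the nearest to Pck1 were Sdc2 (0.990), Klf15 (0.986) and Ces1b (0.984), and the nearest to Fbp1 were Slc25a13 (0.993), Ttpa (0.991) and Trap1 (0.990). Gys2 was nearest to B2m (0.991), Galm (0.987) and Cuta (0.986), Pygl to Abhd14b (0.987), Sucnr1 (0.984) and Acsm5 (0.979), and Slc2a2 to Dhrs3 (0.988), Fdxr (0.979) and Pdzk1 (0.977). Likeness was looser for G6pc (Car3 0.951, Tmprss6 0.950), Pcx (Rsc1a1 0.953, Stra6l 0.952, Cacfd1 0.948) and Pklr (Ppp2r5e 0.936, Fasn 0.935, Snrk 0.923). For Ppargc1a the nearest were Cyp2c38 (0.956), Pcp4l1 (0.955) and Tgfbi (0.939). The points share 4 groups and their libraries, so these values describe the order of the libraries.

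Other measures moved with the same groups. Of 8 hepatocyte markers, Trf was listed at 0 in all WT libraries, which can be a failed estimate, and was left out here after its values were seen. The other 7 were all lower in WT than in Sham (41.9% of all genes tested). Of these 7, 6 were higher and 1, Hpx, lower in RIPK1 D138N vs WT (29.8% and 21.9%), and 6 were higher in TNFR1/2 KO vs WT (29.6%). Their summed level was 36900 to 43900 FPKM in Sham, 9650 to 11300 in WT, 18800 to 20800 in RIPK1 D138N and 19600 to 23700 in TNFR1/2 KO. In bulk RNA, fewer hepatocytes and less of these RNAs per hepatocyte cannot be told apart. Erythroid markers (3 genes) summed to 146 to 281 FPKM in Sham, 67.8 to 125 in WT, 754 to 1550 in RIPK1 D138N and 845 to 1700 in TNFR1/2 KO, and Kupffer cell markers (8 genes) to 58.1 to 88.2, 20.6 to 27.6, 15.1 to 18.7 and 6.38 to 11.4. Cholangiocyte markers (5 genes) summed to 2.41 to 4.60, 27.2 to 32.1, 5.19 to 21.3 and 8.29 to 12.4, and neutrophil markers (5 genes) ranged from 4.66 to 258 FPKM within WT. Stellate cell and fibroblast markers (6 genes) summed to 55.8 to 83.0 FPKM in Sham, 129 to 158 in WT, 134 to 153 in RIPK1 D138N and 56.5 to 90.2 in TNFR1/2 KO. Dcn had the highest mean of them in every group, whereas Col3a1 was higher in WT (23.4 FPKM) than in RIPK1 D138N (7.84 FPKM). In WT vs Sham 3 were higher (16.4% of all genes), and in RIPK1 D138N vs Sham 6 (7.51%). RIPK1 D138N had 3 higher and 2 lower against WT (29.8% and 21.9%), and 2 higher against TNFR1/2 KO (0.35%). Across 11719 genes, the log2 fold change rose with exonic length in WT vs Sham (Spearman rho 0.285) and declined with it in RIPK1 D138N vs WT (-0.276) and TNFR1/2 KO vs WT (-0.246); genes are not independent replicates. With that trend removed, the WT vs Sham calls of G6pc (-0.39, adjusted p = 0.37) and Pcx (-0.40, adjusted p = 0.056) were lost. The part of cell composition in these results was not tested.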

How the data were processed

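Liver RNA-seq of 12 libraries (4 groups of 3) was read from 1 table of FPKM deposited by the authors; all value columns were mapped. Per the labels' protocols RNA was taken with Trizol and libraries made with NEB RNA Ultra. Per the submitters' processing notes the tools were STAR 2.5.4a, Cufflinks 2.2.1 and Cuffdiff, with mm10. Columns of WT and Sham could be matched only to their group.

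Log2(FPKM + 1) was computed here from the deposited FPKM and fitted with limma 3.58.1 (R 4.3.3, with a trend of the variance on the mean), all 4 groups in 1 model. The 11728 genes tested reached 1 FPKM in 3 or more libraries. P-values were adjusted by Benjamini-Hochberg over those genes, and calls used 0.05. This scale understates changes of low genes. FPKM carries no counts, so counting error is unknown. The procedure was tested on simulated data. Ratios of FPKM + 1 used exact two-sided permutation tests.

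The 9 genes and the lists were chosen with earlier results of these data known. From the wider list, the text names called genes with an absolute log2 fold change of at least 1 and at least 5 FPKM in the higher group, at most 6 per direction and set, other genes being marked. For each member the 3 genes of highest correlation are named. Some items that these rules would name are not reported here. Alternatives were other scalings, a pseudocount of 0.1, no filter, 2-group fits, a length correction, leaving out libraries and a replicate block.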

Additional observations from a re-analysis of the deposited data

Results flagged for a closer look

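The liver bifunctional enzyme gene Pfkfb1 differed between the 2 mutant lines. The difference of RIPK1 D138N minus TNFR1/2 KO was 0.89 on the log2 scale (SE 0.186, limma adjusted p = 0.046), which is also the difference between their effects against WT. The means were 9.30 ± 1.36 FPKM in RIPK1 D138N and 4.60 ± 1.12 in TNFR1/2 KO (SD, n = 3), beside 17.8 ± 1.51 in Sham and 0.685 ± 0.245 in WT. All 3 RIPK1 D138N libraries were above all 3 TNFR1/2 KO libraries. The call was not made with a pseudocount of 0.1, without the filter, in a fit of the 2 groups alone or with a replicate block. Nor was it made with RIPK1 D138N replicate 2 or 3 or TNFR1/2 KO replicate 2 or 3 left out alone.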

How the results depend on the processing

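The calls of Pck1, Fbp1, Gys2 and Slc2a2 in WT vs Sham and in both mutants against WT held under every alternative run that kept more than 1 library per group. Of 225 recomputed ratio differences, 219 moved by less than the replicate spread and 6 moved by more. All 6 came from leaving out both Xist-positive libraries, which leaves replicate 1 alone in RIPK1 D138N. Some differences near 0 changed sign. The log2 G6pc to Pklr difference in RIPK1 D138N vs WT was -0.019, and -0.30 to 0.29 with 1 library left out. With both Xist-positive libraries left out that difference was 0.55. Where values below changed, the cause was not tested. Median-of-ratios scaling moved the median of all genes in WT vs Sham from -0.36 to -0.026, and the calls from 1918 higher and 4913 lower to 3169 and 3185.

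Quantile normalization left 4 members lower and 1 higher in WT vs Sham (G6pc 0.074, Pcx 0.58, Pklr 0.10), called 1 lower in TNFR1/2 KO vs WT, and gave Pck1 0.54 and Fbp1 0.016 in TNFR1/2 KO vs Sham and Fbp1 0.16 in RIPK1 D138N vs Sham. Median-of-ratios scaling gave Pck1 0.16 in TNFR1/2 KO vs Sham and Fbp1 0.17 in RIPK1 D138N vs Sham; the length correction gave 0.12 and 0.087. All 3 settings called 5 members higher in TNFR1/2 KO vs Sham. Of the wider list they called 9, 8 and 10 lower in RIPK1 D138N vs Sham (median-of-ratios, quantile, length; 16 as reported) and 5, 5 and 6 lower in TNFR1/2 KO vs Sham (12 as reported).

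Without the filter the wider list had 8 higher in RIPK1 D138N vs Sham (14 as reported), and 10 higher and 6 lower in TNFR1/2 KO vs Sham (16 and 12). Without the 2 Xist-positive libraries the members counted 0 lower in RIPK1 D138N vs WT and 1 higher in RIPK1 D138N vs Sham, where the wider list had 8 higher and 5 lower and 1038 genes were called in all (3539 as reported). That fit leaves replicate 1 alone in RIPK1 D138N and holds no variation within the group. Its counts hence cannot separate the loss of libraries from an effect of the Xist-positive libraries, and nothing is read from them. In the same fit Pck1 was -0.16 and Pklr -0.094 against Sham, and Pck1 -0.080 against TNFR1/2 KO. A fit of the 2 groups alone called 1 member higher in RIPK1 D138N vs Sham.

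Between the mutants, 109 genes were called as reported, 60 without the filter, 20 in the 2-group fit and 39 without the Xist-positive libraries; the wider list then had 0 higher in each, and also 0 with the pseudocount of 0.1. The fit without the Xist-positive libraries again leaves replicate 1 alone in RIPK1 D138N, so nothing is read from its counts. Same-numbered libraries of the mutants did not deviate together (correlations of -0.0975, -0.202 and 0.0574), so the numbers were not taken as pairs. With a replicate block 11 genes were called, 0 of them higher in the wider list.

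Leaving out 1 library at a time gave 27 (without RIPK1 D138N replicate 3) to 588 genes (without replicate 1) between the mutants, with 0 to 4 of the wider list higher and 0 to 3 lower, Pklr at -0.80 to 0.23 and Gys2 at -0.28 to 0.020. It gave 0 to 1 members lower in RIPK1 D138N vs WT. In RIPK1 D138N vs Sham it gave 2249 to 3509 genes (fewest without replicate 3), 1 to 3 members higher and 8 to 14 of the wider list higher. In TNFR1/2 KO vs Sham it gave 1856 to 2609 genes (fewest without replicate 3), 1 to 4 members higher, 1 to 2 lower, 10 to 16 of the wider list higher and 5 to 13 lower, and Pck1 at -0.36 to 0.065. For G6pc in WT vs Sham it gave -1.31 to -0.69.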
